A study of Mus musculus with 6 samples.

Results

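The genes described here encode the subunits of the transcription factor NF-kappaB, inhibitors that NF-kappaB itself induces, or nuclear relatives of these inhibitors (Bcl3 and Nfkbiz). They were chosen by name, as all probe sets of the array that the platform annotation assigns to exactly 1 of 10 gene symbols. Of these, 9 genes with 18 probe sets were measured among 18193 genes on the array, and Nfkb1 was not analysed here. RNA was taken from tracheal mesenchyme of adult male C57Bl/6 mice, in 3 samples at 48 h post injury (hpi), after 4 h in 500 ppm SO2, and in 3 control samples of uninjured mice. Each sample pooled the mesenchyme of 4 tracheas, left after the epithelium was peeled off following 23 min in dispase, and no cells were sorted. Both groups went through this same dissection.

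NF-kappaB is a family of dimers that wait in the cytoplasm, bound to inhibitors of the IkappaB type. Signals from TNF, IL1 or Toll-like receptors lead to the destruction of these inhibitors, and the dimers then enter the nucleus and switch on chemokines, adhesion molecules and their own inhibitors. This negative feedback limits the response in time, and most tissue cells as well as leukocytes can run it. A slower branch works through Nfkb2 and Relb and is used by receptors such as the lymphotoxin beta receptor.

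At 48 hpi the inhibitor gene Nfkbie rose 1.91-fold, and it was the 1 member that passed the test. Of the 9 genes, 1 rose and 0 fell at adjusted p under 0.05 in limma, where 4.97% of all genes rose and 1.24% fell. At an unadjusted p under 0.05, limma put 4 members higher and 1 lower, where 23.9% of all genes passed in either direction, and the equal-variance test of each probe set called 0 members after adjustment, where it called 0.247% of all genes. Bcl3, Nfkb2 and Relb were also higher in every sample at 48 hpi than in every control, but passed only when the replicate number was fitted as a block. With the block 4 members rose and 0 fell, where 8.77% of all genes rose and 4.64% fell. The main inhibitor gene, Nfkbia, was slightly lower at 48 hpi and passed in neither fit. The median log2 fold change of the members was 0.16, against -0.01 over all genes.

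The values are log2 expression from robust multi-array analysis (RMA). Markers of mesenchyme were present, with Col1a2, Dcn, Lum, Vim and Pdgfra far above the bound of 4.76 used here for dim probe sets in all 6 samples. Among leukocyte markers, 11 of 12 macrophage genes rose (median log2 fold change 1.73) and 4 of 8 neutrophil genes rose (median 1.05). More cells of a type and more RNA per cell cannot be told apart in such bulk samples. Epithelial RNA was present too: the summed linear level of 8 epithelial markers was 7102, 2223 and 1613 at 48 hpi, and 13250, 7596 and 7588 in controls. In controls most of this sum was Scgb1a1, a secretory cell gene (log2 fold change -2.57 ± 0.82, SE), while 4 of the 8 were above 0 and the median was -0.14. Samples with the same replicate number deviated from their group means together, with correlations over probe sets of 0.62, 0.36 and 0.335 for numbers 1, 2 and 3, so counts with the number fitted as a block are given beside those of the main fit where they differ. The labels do not say what a number stands for. Among unlike numbers, 48 hpi replicate 2 gave 0.185 with control replicate 3. For 48 hpi replicate 3 with control replicate 2 it was 0.11, and the other unlike pairs lay between -0.432 and -0.361. The pairing of replicates 2 and 3 is thus less clear than that of replicate 1, and calls that pass only with the block rest on it.

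Promoters of several of these genes are known to hold sites that NF-kappaB binds, which closes the feedback loop. A window of 250 bases before and 50 bases after the gene's start was given for 7 of the 9 measured genes, from RefSeq on GRCm38.p6, and was searched on both strands for the kappaB consensus, a motif of 10 letters. It was found in 6 of the 7 genes, against 5.14% of all 27025 genes with such a window. The members include genes known to be induced by NF-kappaB, so a high share was likely beforehand and is given as a description. The stretches below are shown because they hold the match nearest to the first annotated start of each gene that has one, 5′ to 3′ on the strand of the gene, with all matches to the consensus in capitals.
Nfkbie: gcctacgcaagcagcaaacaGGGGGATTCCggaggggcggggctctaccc
Bcl3: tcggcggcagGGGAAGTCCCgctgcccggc
Nfkb2: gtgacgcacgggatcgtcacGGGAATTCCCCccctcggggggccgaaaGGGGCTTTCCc
Nfkbia: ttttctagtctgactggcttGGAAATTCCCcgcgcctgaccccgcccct
Tnfaip3: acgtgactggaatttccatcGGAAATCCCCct
Rel: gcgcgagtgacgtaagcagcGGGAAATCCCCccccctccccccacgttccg
They lie at chr17:45555574-45555623 for Nfkbie (plus strand), chr7:19822734-19822763 for Bcl3 (minus), chr19:46304678-46304736 for Nfkb2 (plus), chr12:55492648-55492696 for Nfkbia (minus), chr10:19015411-19015442 for Tnfaip3 (minus) and chr11:23771031-23771081 for Rel (minus). In Nfkb2 and Rel the first capitals hold matches on both strands that overlap. The match of Bcl3 starts at base 3 of the gene, counting the gene's start as base 1, and that of Nfkbie 106 bases before the start. A match was present in genes that were higher at 48 hpi (Nfkbie, Bcl3, Nfkb2), in 1 that was lower (Nfkbia) and in 2 whose groups overlapped (Tnfaip3, Rel), and none was found in the window of Rela.

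Among the subunits, Rela encodes p65, the main activating subunit of the fast branch. Its probe set read 8.78, 8.54 and 8.62 at 48 hpi, and 8.95, 8.57 and 8.48 in controls. These groups overlapped, and the log2 fold change was -0.02 ± 0.14 (SE, adjusted p = 0.958), with a 95% confidence interval of -0.35 to 0.31. Rel, which encodes c-Rel, a subunit best known from lymphocytes and myeloid cells, read 5.27, 5.62 and 5.16 at 48 hpi, and 5.69, 5.05 and 4.83 in controls. Control replicate 1 was the highest of all 6 samples, and the difference of 0.16 ± 0.23 did not pass (SE, adjusted p = 0.755, interval -0.38 to 0.70).

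Nfkb2 encodes p100, which is cut to the subunit p52 in the slow branch. The probe set used for the gene read 7.56, 7.35 and 7.37 at 48 hpi, and 7.06, 7.06 and 6.89 in controls. All samples at 48 hpi lay above all controls, with a log2 fold change of 0.42 ± 0.10 (SE, 1.34-fold), which missed the threshold (adjusted p = 0.0655) and passed with the replicate block (adjusted p = 0.0317). The other probe set of Nfkb2, whose suffix marks probes that may also match other transcripts, differed. It read 6.69, 6.70 and 6.65 at 48 hpi, and 6.91, 6.56 and 6.75 in controls, a difference of -0.06 ± 0.11 (SE, interval -0.31 to 0.19), so the result for this gene rests on 1 of its 2 probe sets.

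Relb, the partner of p52, read 6.87, 6.61 and 6.66 at 48 hpi, and 6.52, 6.25 and 6.31 in controls. The groups did not overlap, and the log2 fold change was 0.35 ± 0.11 (SE, 1.28-fold, adjusted p = 0.146, and 0.0414 with the replicate block). Taken number by number, 48 hpi minus control gave 0.34, 0.37 and 0.35 for Relb, and 0.50, 0.29 and 0.47 for Nfkb2. By the probe sets used for the genes, Relb and Nfkb2 of the slow branch were 1.28-fold and 1.34-fold higher, and passed only with the replicate block. With the mean of all probe sets of a gene, Nfkb2 was 0.18 higher on the log2 scale (limma, adjusted p = 0.237). Rela and Rel of the fast branch had groups that overlapped. Whether the branches differ was not tested.

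**Figure D1:**
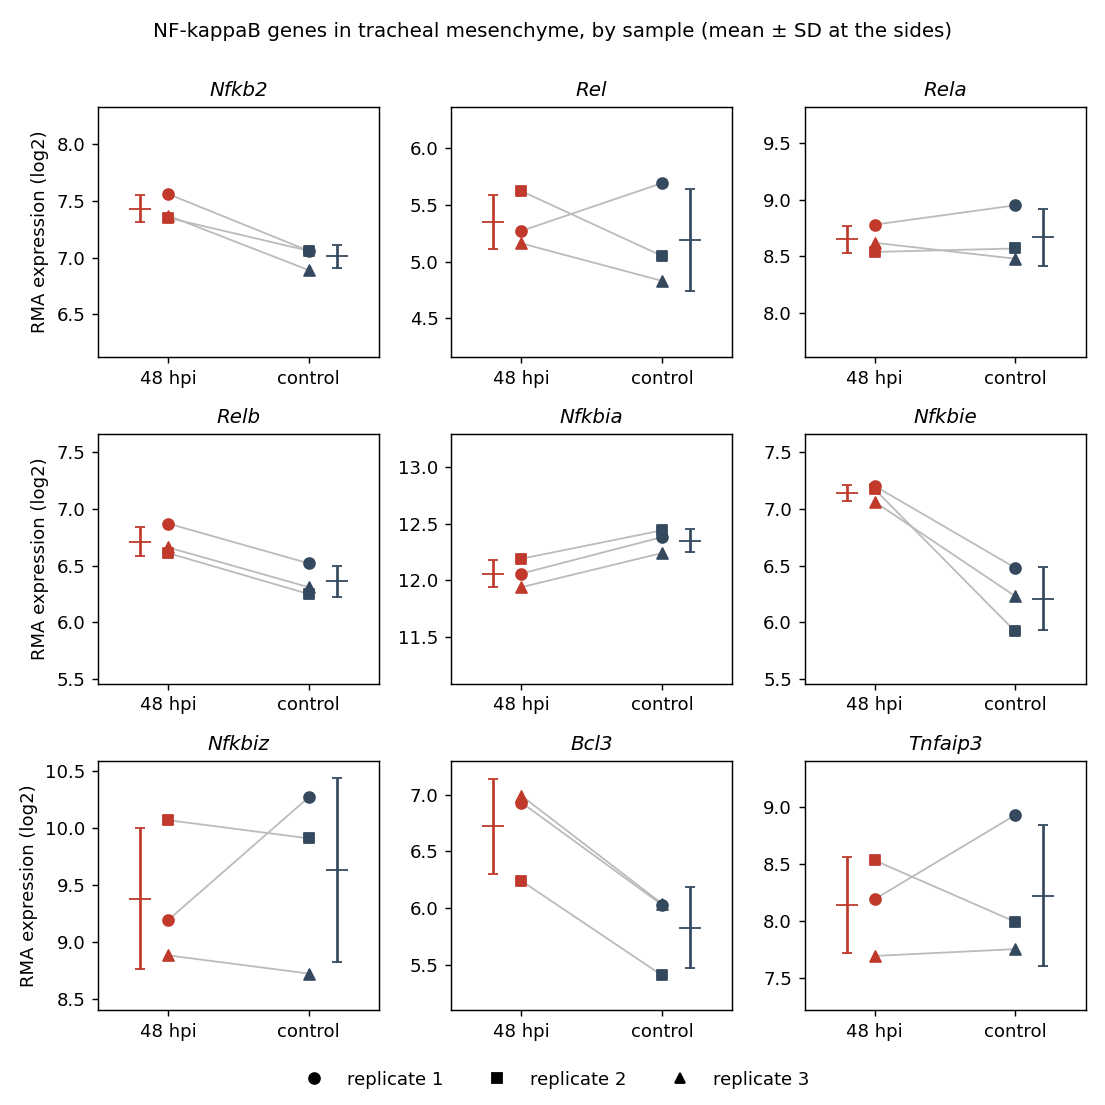
RMA expression on the log2 scale (vertical axes, all of equal height) of the 9 measured genes at 48 hpi (left, red) and in controls (right, blue), with 1 symbol per sample, grey lines joining samples of the same replicate number, and the mean ± SD of 3 samples at the sides. All samples of Nfkbie, Bcl3, Nfkb2 and Relb at 48 hpi lie above all controls, those of Nfkbia lie below, and the groups of Rel, Rela, Nfkbiz and Tnfaip3 overlap.

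Nfkbie encodes IkappaB epsilon, an inhibitor that holds dimers in the cytoplasm and is itself induced by NF-kappaB. The probe set used for the gene read 7.20, 7.17 and 7.06 at 48 hpi, and 6.48, 5.92 and 6.23 in controls, or 7.14 ± 0.07 against 6.21 ± 0.28 (SD, n = 3 each). The lowest sample at 48 hpi was above the highest control, and the log2 fold change was 0.93 ± 0.15 (SE, adjusted p = 0.0180, interval 0.59 to 1.28). The suffix of the probe set used for Nfkbie marks probes shared by several transcripts, which may be of the same gene. The second probe set of Nfkbie gave the same picture. It read 5.46, 5.31 and 5.53 at 48 hpi, and 4.89, 4.68 and 4.72 in controls, a log2 fold change of 0.67 ± 0.10 (SE, adjusted p = 0.0160). Of all probe sets 3.49% rose. Both probe sets of Nfkbie also passed with the replicate block (adjusted p = 0.00675 and 0.00781). The size was stable when 1 sample was left out, at 0.79 to 1.07, but the call was lost without control replicate 3 (adjusted p = 0.0688) and without 48 hpi replicate 1 (0.0589), 2 (0.0575) or 3 (0.0714).

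Nfkbia encodes IkappaB alpha, the inhibitor that is destroyed and remade most quickly. Its probe set of highest mean read 12.06, 12.19 and 11.94 at 48 hpi, and 12.38, 12.44 and 12.24 in controls. All samples at 48 hpi lay below all controls, with a log2 fold change of -0.29 ± 0.10 (SE, 1.22-fold lower, interval -0.53 to -0.05), which did not pass (adjusted p = 0.183, and 0.0742 with the replicate block). Differences number by number were -0.32, -0.25 and -0.30. All 5 probe sets of Nfkbia had log2 fold changes below 0, between -0.34 and -0.24, and 2 of the 5 had groups without overlap. Nfkbie and Nfkbia were thus on opposite sides of 0, with intervals that did not overlap, but a difference between the genes was not tested. Nfkbib, an inhibitor gene outside the members, had a log2 fold change of 0.26 ± 0.15 (SE, adjusted p = 0.396, interval -0.09 to 0.61).

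Bcl3 encodes a nuclear relative of the IkappaB proteins that binds dimers of p50 or p52 on DNA. It read 6.93, 6.24 and 6.99 at 48 hpi, and 6.03, 5.41 and 6.04 in controls. The groups did not overlap, and replicate 2 was the lowest in both. The log2 fold change was 0.89 (1.86-fold), with an SE of 0.25 and adjusted p = 0.104 without the replicate block, and an SE of 0.08 and adjusted p = 0.00192 with it. Differences number by number were 0.90, 0.82 and 0.95.

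Over the 9 genes, 5 had groups without overlap, 4 of them higher at 48 hpi and 1 lower. Of all genes 30.4% had no overlap, 17.2% on the higher side and 13.1% on the lower. Of 12 macrophage markers 11 were also higher at 48 hpi, with Itgam 2.88 and Cd68 2.28 higher on the log2 scale. The summed linear level of all 12 was 21700, 18070 and 17060 at 48 hpi, and 13910, 12570 and 14550 in controls. In controls most of this sum was Lyz2. Of 8 neutrophil markers 4 rose, and 5 with the replicate block. The summed levels of all 8 were 3371, 1978 and 4473 at 48 hpi, and 540.3, 352.4 and 528.2 in controls. At 48 hpi most of this sum was S100a8 and S100a9. Camp (log2 fold change 0.01) and Cxcr2 (0.24, dim) were not called. Ngp was lower in every sample at 48 hpi than in every control (-0.26, adjusted p = 0.167). The 1 macrophage marker that did not rise was Lyz2 (log2 fold change -0.43, adjusted p = 0.399). Of 7 dendritic cell markers 0 passed and 2 rose with the replicate block. Of 7 T cell and 5 B cell markers, 0 were called in limma, also at an unadjusted p under 0.05 and by the equal-variance test. Among other cell types, 3 of 7 endothelial markers and 1 of 7 mesenchyme markers rose (4 and 2 with the replicate block), and 0 of 8 epithelial, 0 of 5 chondrocyte and 0 of 5 smooth muscle markers were called in limma without the block or by the equal-variance test, with 1, 3 and 0 of them lower at an unadjusted p under 0.05. With the replicate block 1 epithelial marker, Scgb1a1 (adjusted p = 0.0146), and 2 chondrocyte markers, Matn1 (0.0269) and Sox9 (0.0292), fell. The part of leukocyte or endothelial RNA in the values of Nfkbie, Bcl3, Nfkb2 and Relb was not tested.

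**Figure D2:**
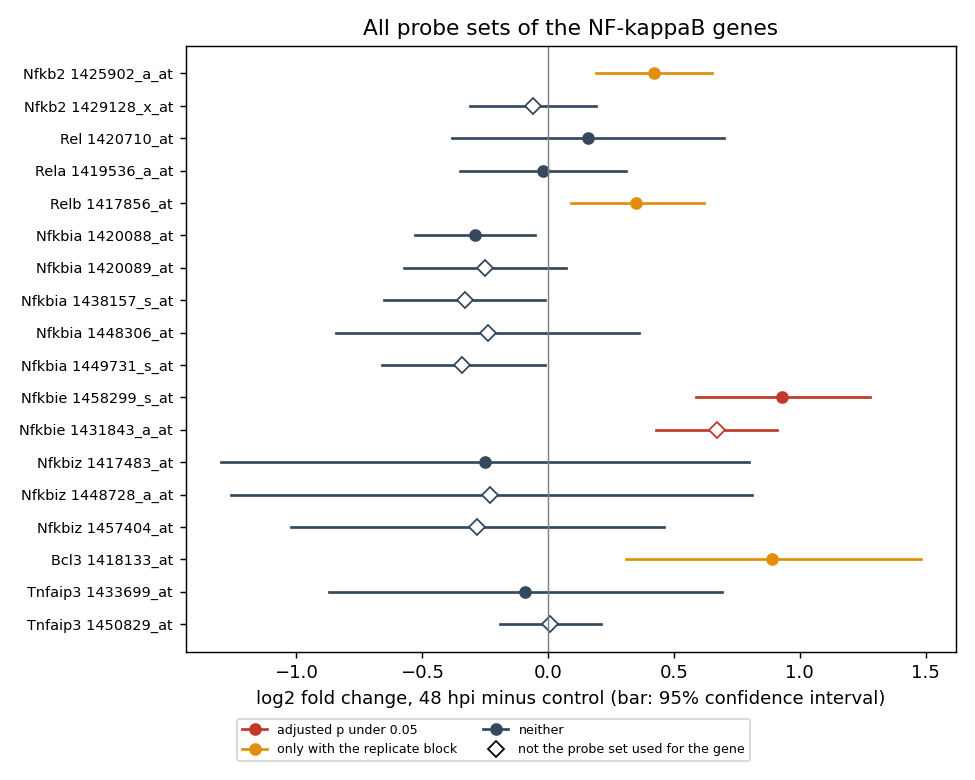
The horizontal axis gives the log2 fold change, 48 hpi over control, of all 18 probe sets of the 9 genes (vertical axis), with 95% confidence intervals of the limma fit without a block. Both probe sets of Nfkbie lie clear of 0 and passed at adjusted p under 0.05, the probe sets of Nfkbia all lie below 0, and the 2 probe sets of Nfkb2 differ, at 0.42 and -0.06.

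Tnfaip3 and Nfkbiz had wide spreads within groups. Tnfaip3 encodes A20, a ubiquitin-editing enzyme that shuts off signaling upstream of the kinase complex. Its probe set read 8.19, 8.53 and 7.69 at 48 hpi, and 8.93, 7.99 and 7.75 in controls. The controls spanned 1.18 on the log2 scale and enclosed all samples at 48 hpi but 1, and the log2 fold change was -0.09 ± 0.33 (SE, adjusted p = 0.920, interval -0.87 to 0.69). A second probe set of Tnfaip3 lay between 3.92 and 4.07 in all samples, below the bound for dim probe sets, and says little about the gene.

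Nfkbiz encodes IkappaB zeta, a nuclear cofactor needed for a second wave of NF-kappaB targets such as Il6 and Lcn2. It read 9.19, 10.07 and 8.88 at 48 hpi, and 10.27, 9.91 and 8.72 in controls, with the highest and the lowest of the 6 values both in controls. The log2 fold change was -0.25 ± 0.45 (SE, adjusted p = 0.807, interval -1.30 to 0.80), and the other 2 probe sets of Nfkbiz gave -0.23 and -0.28. The interval of Nfkbiz is the widest of the members, and the data do not show that the gene was level.

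The control SD of Nfkbiz (0.81) was at percentile 99.7 of all genes, and that of Tnfaip3 (0.62) at percentile 99.0, against 37.6 for Nfkbia and 33.7 for Nfkb2. A control SD at least that of Tnfaip3 was found in 1.02% of all genes. By the probe sets used for the genes, and among controls, Nfkbiz, Tnfaip3, Rel and Rela were all highest in replicate 1 and lowest in replicate 3. How common this order is over all genes was not counted. At 48 hpi Nfkbiz, Tnfaip3 and Rel were all highest in replicate 2 and lowest in replicate 3, while Rela was highest in replicate 1. Another probe set of Nfkbiz ran otherwise, at 8.39, 9.45 and 9.17 at 48 hpi, and 8.76, 9.49 and 9.59 in controls, so the pattern of Nfkbiz rests on 2 of its 3 probe sets. Immediate early genes, which cells switch on within minutes of stress or handling, varied between the same samples. Their summed linear level was 26690, 35420 and 20790 at 48 hpi, and 42270, 38740 and 27610 in controls. Fos and Dusp1, the members of this list with the highest means, had log2 fold changes of -0.23 and -0.28 (adjusted p = 0.488 and 0.492). Atf3, named after its values were seen, read 8.60, 9.56 and 7.53 at 48 hpi, and 10.40, 9.60 and 8.52 in controls. Among controls Atf3, Junb, Ier2, Egr1 and Fos were highest in replicate 1. Jun (11.52, 11.84 and 10.96), Fosb (10.07, 10.37 and 9.23) and Dusp1 (13.18, 13.21 and 12.72) were highest in control replicate 2. The part of handling in the values of Nfkbiz, Tnfaip3, Rel and Rela was not tested. Of the 8 immediate early genes 0 passed in limma and by the equal-variance test, 1 was lower at an unadjusted p under 0.05, and the log2 fold changes were below 0 for all 8 (median -0.51). With the replicate block 3 of them fell.

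**Figure D3:**
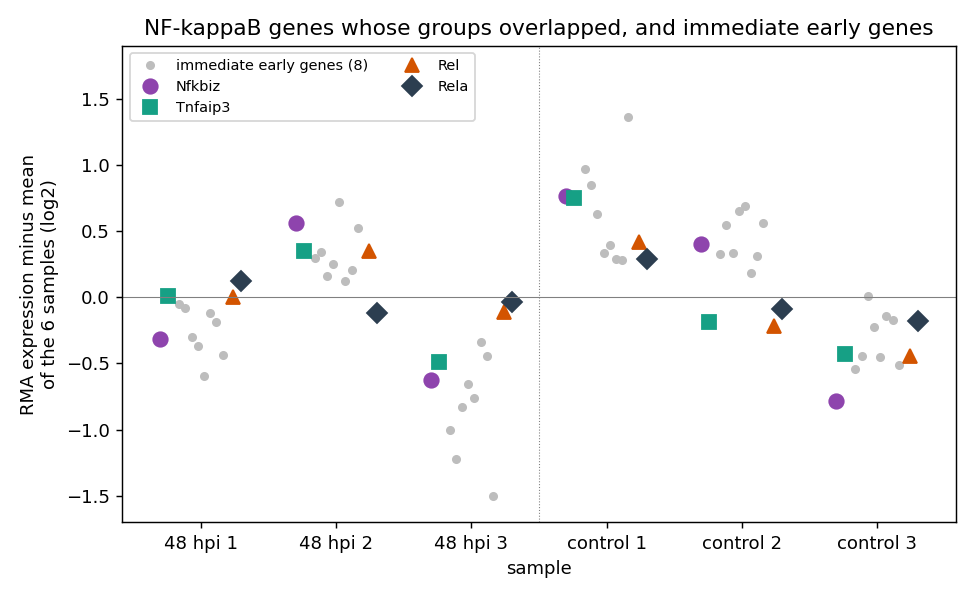
RMA expression of Nfkbiz, Tnfaip3, Rel and Rela, each minus its own mean over the 6 samples (vertical axis, log2), in the 3 samples at 48 hpi and the 3 controls (horizontal axis), with the 8 immediate early genes in grey. Each gene is shown by its probe set of highest mean. In controls, replicate 1 has the highest value of each of the 4 genes and replicate 3 the lowest, and at 48 hpi replicate 3 has the lowest values of Nfkbiz, Tnfaip3 and Rel.

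Upstream of the subunits, the lists of ligands and receptors span both branches. Of all genes 4.97% rose and 1.24% fell, and 8.77% rose with the replicate block. Of 11 ligand genes 2 rose and 0 fell, and 4 rose with the replicate block, which added Tnfsf11 (adjusted p = 0.0173) and Tnfsf13b (0.0199), ligands known for the slow branch. By its mean over all samples Tnfsf11 was below the bound for dim probe sets, with means of 5.35 at 48 hpi and 4.05 in controls. Il1b, the cytokine that signals through Il1r1, read 9.37, 9.22 and 9.31 at 48 hpi, and 7.51, 6.60 and 6.77 in controls (adjusted p = 0.00268). Il33, an alarm cytokine of the IL1 family held in nuclei of barrier and stromal cells, was 1.77-fold higher (adjusted p = 0.0102). Tnf was dim in both groups, at 4.62 ± 0.21 at 48 hpi and 4.48 ± 0.20 in controls (SD, n = 3 each). Of 12 receptor genes 3 rose and 0 fell. They were Cd14, the co-receptor for lipopolysaccharide (log2 fold change 1.24 ± 0.24, SE), Tnfrsf1b, a TNF receptor of leukocytes and endothelium (0.98 ± 0.20), and Il1r1 (0.74 ± 0.09, adjusted p = 0.00815). Cd14 and Tnfrsf1b are also expressed by the myeloid cells whose markers rose.

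The kinases and adaptors between receptors and subunits showed smaller differences. Of 20 genes 0 rose or fell in limma, also with the replicate block, and 0 by the equal-variance test, while 3 were higher at an unadjusted p under 0.05. Their log2 fold changes lay between -0.22 and 0.35, with a median of 0.05. The members of highest mean were Tab2 (-0.22 ± 0.10, SE, adjusted p = 0.289) and Irak1 (0.05 ± 0.09, adjusted p = 0.789), which both relay signals of IL1 and Toll-like receptors. Of 17 other inhibitors of the pathway, 1 rose and 0 fell, where 4.97% of all genes rose and 1.24% fell. This was Commd1, which promotes the turnover of p65, at 9.94 ± 0.05 at 48 hpi and 9.53 ± 0.07 in controls (SD, n = 3 each, log2 fold change 0.41 ± 0.08, SE, adjusted p = 0.0412), a call that was lost when any 1 sample was left out.

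Of 32 genes known as NF-kappaB targets in various cells, 7 rose and 0 fell (median log2 fold change 0.31), and 10 rose with the replicate block. Of all genes 4.97% rose and 1.24% fell (median -0.01), and 8.77% rose with the block. The list was chosen with earlier results of these data known, so its counts are a description. The 7 were the chemokines Cxcl2, Ccl2, Cxcl5 and Ccl3, the adhesion molecules Selp and Vcam1, and the acute phase gene Saa3. The part of leukocyte or endothelial RNA in their values was not tested. The largest differences were those of Cxcl2, Ccl2 and Saa3. Cxcl2, which attracts neutrophils, read 10.60, 10.33 and 10.69 at 48 hpi, and 8.80, 7.34 and 6.88 in controls (adjusted p = 0.0177), a 7.30-fold difference. Ccl2, which attracts monocytes, read 9.75, 8.42 and 10.17 at 48 hpi, and 7.70, 6.81 and 6.43 in controls (adjusted p = 0.0391), a 5.52-fold difference. Among controls both were highest in replicate 1 and lowest in replicate 3, as were Nfkbiz and Tnfaip3. Saa3 was 5.20-fold higher (adjusted p = 0.00743). Only 2 targets passed when control replicate 2 was left out, and likewise for replicate 1 or replicate 3 at 48 hpi, and 3 passed when control replicate 3 was left out.

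Of 3 measured targets of the branch of Relb and p52, 0 rose or fell in limma, with or without the block, and by the equal-variance test, and 1 was higher at an unadjusted p under 0.05. Cxcl12, a stromal chemokine, read 10.55, 10.63 and 10.58 at 48 hpi, and 10.29, 10.39 and 10.29 in controls (log2 fold change 0.27 ± 0.08, SE, adjusted p = 0.129). Cxcl13, which attracts B cells, had a log2 fold change of 0.26 ± 0.30 (SE, adjusted p = 0.685).

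**Figure D4:**
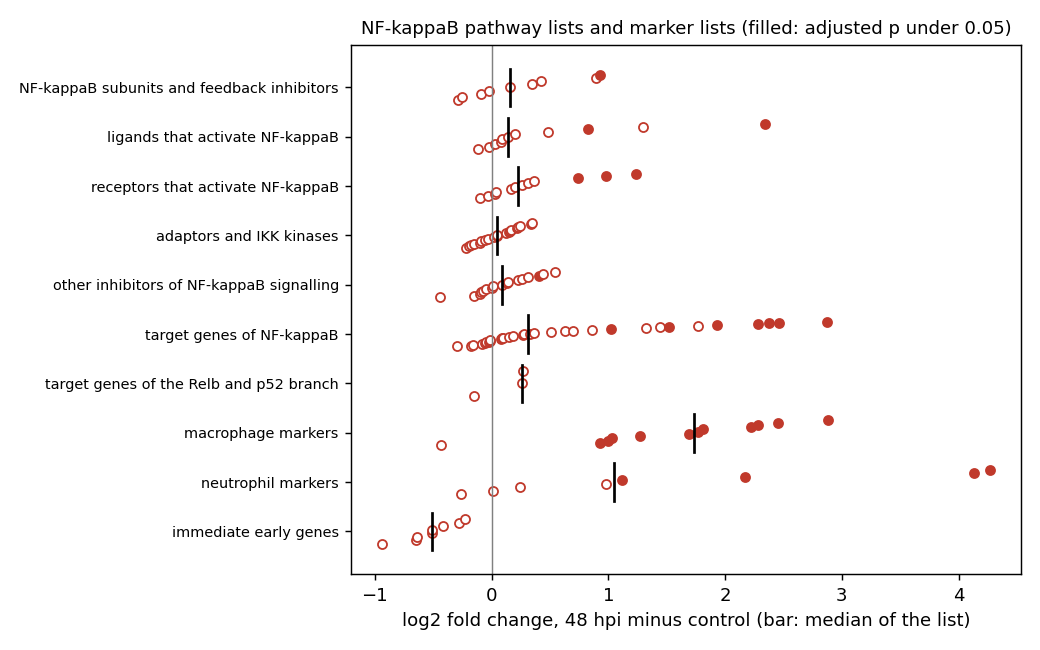
Each point is a measured gene of the NF-kappaB, macrophage, neutrophil and immediate early lists (vertical axis), placed by its log2 fold change, 48 hpi over control (horizontal axis). Filled points passed at adjusted p under 0.05, and bars mark medians. The members have a median of 0.16, kinases and adaptors stay between -0.22 and 0.35, and 7 of 32 target genes are filled, up to 2.87 for Cxcl2.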

How the data were processed

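The authors amplified the RNA, ran 1 Affymetrix Mouse Genome array per sample and normalized the arrays by RMA. Deposited are log2 expression values for every probe set. Tools in the submitters' processing notes are Affymetrix Expression Console 1.1 and Partek 6.5. RMA equalizes the arrays (column medians 5.29 to 5.38), so a shift common to most genes is lost, and dim genes have compressed folds. Within a group each sample is its own pool of mice, so p-values measure the spread between pools. Correlations within groups were 0.987 to 0.994.

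Of 45101 probe sets, 64 controls were left out and 45037 were tested with limma 3.58.1 in R 4.3.3 (lmFit, eBayes, two-sided, group as the factor, Benjamini-Hochberg over all probe sets, threshold 0.05). The fit left 4 residual degrees of freedom (2 with the replicate block), and the prior had 3.21. In the platform annotation 34945 probe sets had 1 symbol, 932 had several and 9160 had none, and 34741 were matched to RefSeq symbols of GRCm38.p6 through Entrez identifiers. A gene took its probe set of highest mean. The array number limits the precision. The dim bound is percentile 40 of probe set means. The fit was tested on simulated data.

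Members and lists were chosen with earlier results of these data known. Named were all members, up to 3 rises and 2 falls per list or its 2 genes of highest mean, and 2 genes most like each called member. Listed genes without a probe set of 1 symbol were not analysed here. Same-numbered samples deviated together (each correlation over 0.1), which was the rule for using the replicate block beside the main test. Some pairs of unlike number were over 0.1 too, so the rule is a weak check of the pairing. The alternatives are given in the closing section.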

Additional observations from a re-analysis of the deposited data

How the results depend on the processing

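Arrays give no depth, and 3 samples a group limit what can be seen. The count of members that rose (1) was 4 with the replicate block, 0 by the equal-variance test after adjustment, 0 at adjusted p 0.01, 2 at adjusted p 0.1, and 0 to 1 when 1 sample was left out. It stayed at 1 with dim probe sets left out, with arrays centred, with quantile normalization repeated, with a prior variance following the mean, with the mean of all probe sets of a gene and without both samples numbered 1. The count that fell was 0 in each of these. At an unadjusted p under 0.05 the equal-variance test put 4 members higher and 1 lower, where 21.2% of all genes passed. Over all genes, 904 rose and 226 fell, against 1596 and 845 with the replicate block, 41 and 4 by the equal-variance test, and 349 to 647 and 17 to 98 with 1 sample left out. Called ligands (2) were 4 with the block and 0 by the equal-variance test. Called receptors (3) were 0 by that test and 1 to 3 with 1 sample left out, and called targets (7) were 10 with the block, 0 by that test and 2 to 8 with 1 sample left out. The 1 other inhibitor called was 0 with quantile normalization repeated, by the equal-variance test and with any 1 sample left out.

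The sign of genes near 0 turned. Rela was 0.01 with arrays centred and -0.11 to 0.12 with 1 sample left out, Rel -0.02 to 0.41, Nfkbiz -0.71 to 0.07 and Tnfaip3 -0.32 to 0.27. Without both samples numbered 1, Rela was 0.06, Nfkbiz 0.16 and Tnfaip3 0.24. The cause was not tested. Nfkbie had adjusted p = 0.127 by the equal-variance test. Apart from Nfkbie, Bcl3, Nfkb2 and Relb, no member passed in any setting.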

Other observations

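The genes whose values were most like those of Nfkbie over the 6 samples, among genes above the dim bound, were Tradd and Poc1a. Tradd, an adaptor of TNF receptors, read 7.42, 7.41 and 7.38 at 48 hpi, and 7.23, 7.10 and 7.17 in controls. Its Pearson correlation with Nfkbie was 0.9996 over 6 samples, and its difference of 0.24 ± 0.08 on the log2 scale missed the threshold (SE, adjusted p = 0.165). Poc1a, a centriole gene, had a correlation of 0.9988 and a log2 fold change of 0.33 ± 0.09 (SE, adjusted p = 0.0840). The correlation with Nfkbie was above 0.95 for 201 genes, and it holds the difference between the groups as well as the spread within them.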
